A study of Caenorhabditis elegans with 12 samples.

Results

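The MEG genes of Caenorhabditis elegans are described here by the small RNAs that were counted against them. They were taken by name from the deposited tables: meg-1, meg-2, gei-12 and C36C9.1. The last pair now carry the names meg-3 and meg-4, which are used below. They are 4 of 42048 listed genes, and all 4 lie on chromosome X. MEG proteins are intrinsically disordered proteins of germ granules, the RNA-rich condensates that are handed to the germline precursors of the early embryo. MEG-3 and MEG-4 coat the PGL core of these granules and are needed for them to gather on the germline side of the dividing embryo. MEG-1 and MEG-2 are related proteins that act in the same process and in the survival of the germ cells. The granules also hold parts of the small RNA machinery, in which RNA-dependent RNA polymerases copy a targeted transcript into secondary small RNAs that carry a 5′ triphosphate.

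The small RNAs came from whole worms at the stage labelled young mother. Worms of every group, the wild type included, were synchronized by starvation and fed at 20 °C on HT115 bacteria that made double-stranded RNA against pos-1 (labelled 400 nt). The strains were the double mutant with the alleles meg-3(ax3055) and meg-4(ax3052), the mutant rde-11(hj37), whose gene encodes a zinc finger protein of RNA interference amplification, and the wild type N2. The genotype label names the strain JH3475 for all libraries of this double mutant, meg-3 meg-4 in the plots, while the titles of their replicate 2 libraries read JH3745. The lesion behind each allele was not named in the labels. RNA was treated with 5′ polyphosphatase, which lets small RNAs with a 5′ triphosphate into the library (treated RNA), or not treated, in which case the ligation favours a 5′ monophosphate. Each of the 6 groups held 2 libraries of 3884534 to 5278777 reads assigned to genes. Nothing in the labels says that replicates came from separate cultures, so p-values measure only the spread between these libraries, which may be technical. The tissue markers were present in every treated library, with mir-1 of muscle at 167 to 249 fpm, mir-35 of embryos and germline at 2552 to 4082 fpm, lin-4 at 199 to 301 fpm and mir-124 of sensory neurons at 3.10 to 8.46 fpm.

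A level is given in fpm, the deposited count of a gene scaled to the reads its library had assigned to genes, with 1 read worth 0.189 to 0.257 fpm. It counts small RNAs against a gene, not its transcript. In whole worms, fewer cells of a type and less RNA per cell cannot be told apart. None of the MEG genes overlaps another annotated gene (0 overlaps for each), and no other line of the tables held the same values as a MEG gene. No sequences are shown, because no sequence of these genes was among the references used.

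In treated RNA, meg-4 had the most small RNAs of the members in rde-11 and N2 and the fewest in the double mutant. It stood at 0 and 0.379 fpm in the double mutant, at 136 and 135 fpm in rde-11, and at 72.5 and 71.4 fpm in N2. The groups did not overlap, and the replicates of rde-11 and of N2 lay close together, with SDs of 0.941 and 0.831 fpm. meg-3, the paralog of meg-4, stood at 1.06 and 1.33 fpm in the double mutant, 13.6 and 18.1 fpm in rde-11, and 9.78 and 14.3 fpm in N2. The double mutant lay below all other libraries, while the ranges of rde-11 and N2 overlapped.

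meg-1 stood at 2.11 and 7.20 fpm in the double mutant, 4.52 and 5.64 fpm in rde-11, and 3.87 and 5.01 fpm in N2. Both the lowest and the highest of these values belonged to the double mutant. meg-2 stood at 1.48 and 4.17 fpm in the double mutant, 2.36 and 7.25 fpm in rde-11, and 2.04 and 2.86 fpm in N2. The 3 strains overlapped for both genes. These values rest on 7 to 38 reads per library, so a single library such as meg-1 in double mutant replicate 1 had an exact 95% binomial interval of 1.01 to 3.89 fpm, which covers counting error only.

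**Figure D1:**
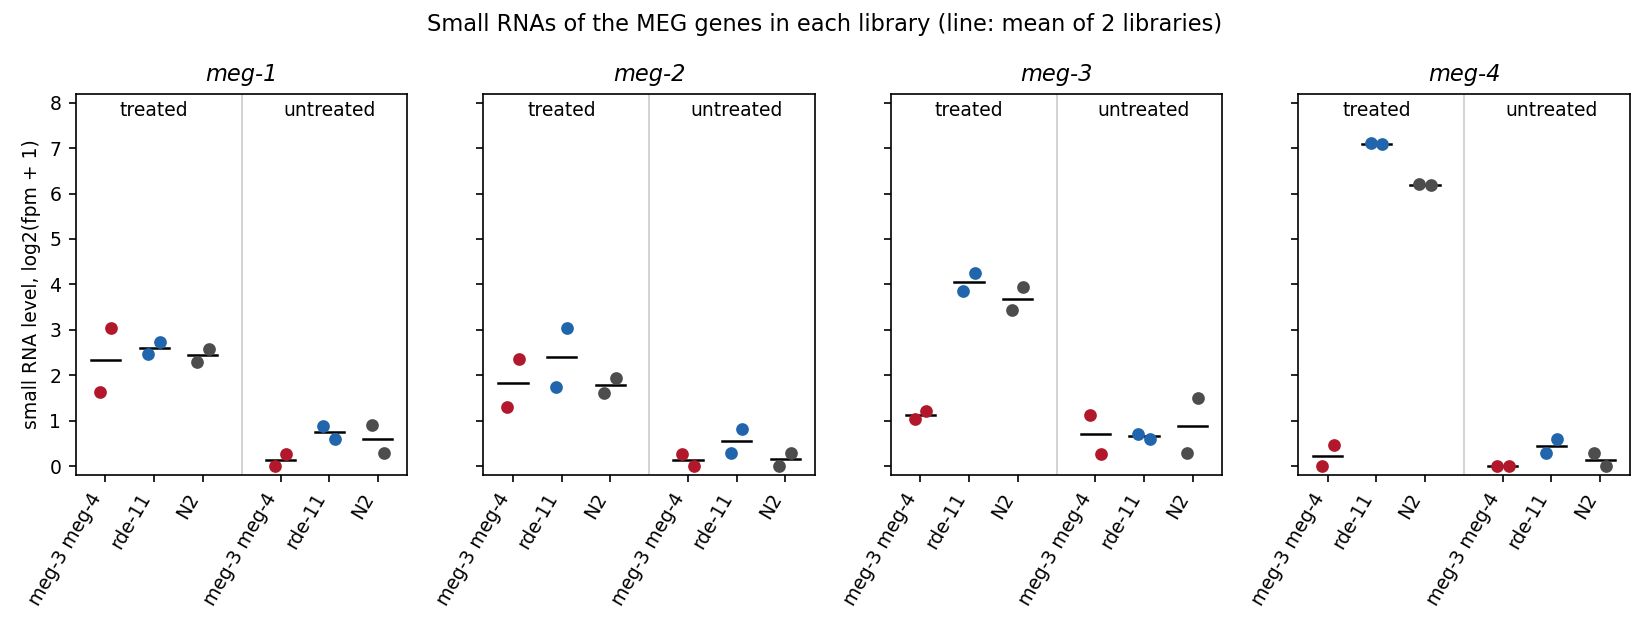
Small RNA level of each MEG gene on a log2(fpm + 1) axis, with 1 point per library, the double mutant, rde-11 and N2 from left to right in treated and then untreated RNA, and lines at the mean of 2 libraries. In treated RNA meg-4 and meg-3 sit near 0 to 1.33 fpm in the double mutant, and in untreated RNA no library of any gene exceeds 1.83 fpm.

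Levels of different genes were compared per kilobase of annotated exon. In treated RNA of N2, meg-4 came first with 26.5 ± 0.306 fpm per kb (mean ± SD, n = 2), followed by meg-3 with 4.34 ± 1.16, meg-1 with 1.88 ± 0.341 and meg-2 with 0.842 ± 0.201. Neighbours in this order did not overlap between libraries. The level per kb of meg-4 exceeded that of 83.8% of the 15963 protein-coding genes with a read in treated RNA of N2, that of meg-3 52.2%, that of meg-1 41.5% and that of meg-2 30.0%. In rde-11 the order was the same, with meg-4 at 49.99 ± 0.347 fpm per kb, meg-3 at 5.71 ± 1.16, meg-1 at 2.15 ± 0.334 and meg-2 at 1.65 ± 1.19, and the last pair overlapped. In the double mutant meg-1 came first, at 1.97 ± 1.52 fpm per kb, meg-2 at 0.970 ± 0.653, meg-3 at 0.429 ± 0.0686 and meg-4 at 0.0699 ± 0.0988. There meg-1 and meg-2 overlapped, and meg-4 exceeded 2.56% of protein-coding genes.

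**Figure D2:**
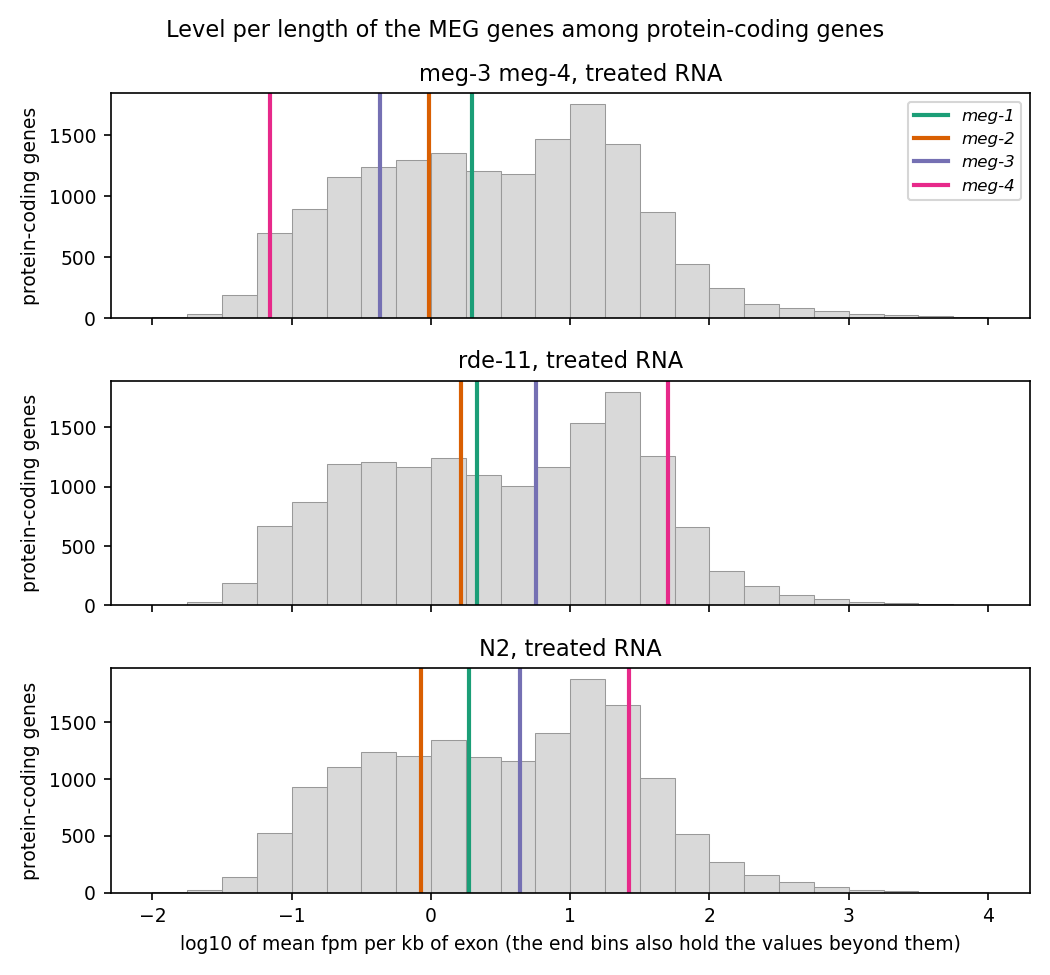
Number of protein-coding genes by the log10 of their mean fpm per kb of exon in treated RNA of the double mutant, rde-11 and N2, from top to bottom, with a vertical line at each MEG gene. The line of meg-4 moves to the left end of the distribution in the double mutant (0.0699 fpm per kb) and stands near its right side in rde-11 (49.99) and N2 (26.5).

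In treated RNA of the double mutant, small RNAs of both genes named in its genotype fell against N2, and those of the other members did not pass the test. A gene was called at a Benjamini-Hochberg adjusted p under 0.05 over all genes tested with limma on log2(fpm + 1), on which the change of a gene with few reads is understated. meg-4 fell to 0.189 ± 0.268 fpm in the double mutant, against 72.0 ± 0.831 fpm in N2 (SD, n = 2 each), a log2 change of -5.96 (SE 0.27, limma, adjusted p = 5.6e-05). meg-3 fell to 1.19 ± 0.190 fpm in the double mutant, against 12.1 ± 3.21 fpm in N2 (-2.55 ± 0.29 SE, limma, adjusted p = 0.00153). Thus 2 of the 4 members, those named in the genotype, were called lower, where 6.72% of the 16253 genes tested were. Among the 1318 tested genes of chromosome X, on which all 4 members lie, 19.7% were called lower. The authors' deposited table gives log2 changes of -8.29 for meg-4 (adjusted p = 1.15e-12) and -3.12 for meg-3 (adjusted p = 1.5e-04), from its own fit.

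The double mutant libraries together held 2 reads of meg-4, against 655 in N2, so that N2 held 360 times the level of the double mutant, with an exact 95% counting interval of 99.4 to 2982. Of meg-3 they held 12 reads, 5 and 7 per library, against 108 in N2, a ratio of 9.90 with an interval of 5.44 to 19.8. The ratio of meg-4 was 190 (52.4 to 1573) without double mutant replicate 1, and without replicate 2 no read of meg-4 remained in the double mutant, which leaves a lower bound of 92.1. A difference between the log2 changes of these genes was not tested.

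meg-1 and meg-2 had log2 changes of -0.10 and 0.06 in the double mutant against N2, with limma 95% intervals of -1.15 to 0.95 and -0.86 to 0.98 (limma, adjusted p = 0.947 and 0.964). A change of up to about 2-fold in either direction therefore lies within the intervals, and the direction of both turned with single libraries, that of meg-1 also with edgeR and that of meg-2 with microRNAs centred. Replicate 2 of the double mutant exceeded replicate 1 by 1.40 log2 units for meg-1 and by 1.06 for meg-2. Among the 5109 genes of similar level (2 to 8 fpm) in these libraries, the middle 90% of such differences lay between -0.86 and 0.76.

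Small RNAs of meg-4 rose in treated RNA of rde-11 and those of the other members did not pass the test. meg-4 stood at 136 ± 0.941 fpm in rde-11, against 72.0 ± 0.831 fpm in N2 (SD, n = 2 each), a 1.87-fold rise on the log2(fpm + 1) scale (log2 change 0.90 ± 0.14 SE, limma, adjusted p = 0.00127). This is 1 of 4 members called higher, where 6.34% of 16491 genes were. Over genes that averaged 50 fpm or more, the median change was itself 0.23, and with that median set to 0 the change of meg-4 was 0.70 (limma, adjusted p = 0.0023). In the authors' deposited table the change of meg-4 is 0.82 (adjusted p = 5.43e-04). The call ended when all 3 strains shared 1 estimate of the spread (adjusted p = 0.0724).

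The changes of meg-2, meg-3 and meg-1 in rde-11 were 0.62, 0.38 and 0.16 (limma, adjusted p = 0.333, 0.351 and 0.757). Their 95% intervals ran from -0.20 to 1.44, from -0.14 to 0.89 and from -0.41 to 0.73. For meg-2 the outcome rested on single libraries: its change was 1.27 without rde-11 replicate 1 (limma, adjusted p = 0.021) and -0.03 without rde-11 replicate 2 (limma, adjusted p = 0.983).

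The mutants were also set against each other in treated RNA, since their comparisons with N2 share the N2 libraries. meg-4 was lower in the double mutant than in rde-11, with a log2 change of -6.86 (SE 0.26, limma, adjusted p = 8.1e-06) and so was meg-3, with -2.93 (SE 0.26, limma, adjusted p = 3.3e-04), so 2 of 4 members were called lower, where 8.39% of 16216 genes were. For meg-1 the change was -0.26 (95% interval -1.26 to 0.74) and for meg-2 -0.56 (-1.69 to 0.58), with limma adjusted p = 0.719 and 0.488. Without double mutant replicate 2, both were called lower as well, with changes of -0.96 and -1.09 (limma, adjusted p = 0.0237 and 0.013).

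**Figure D3:**
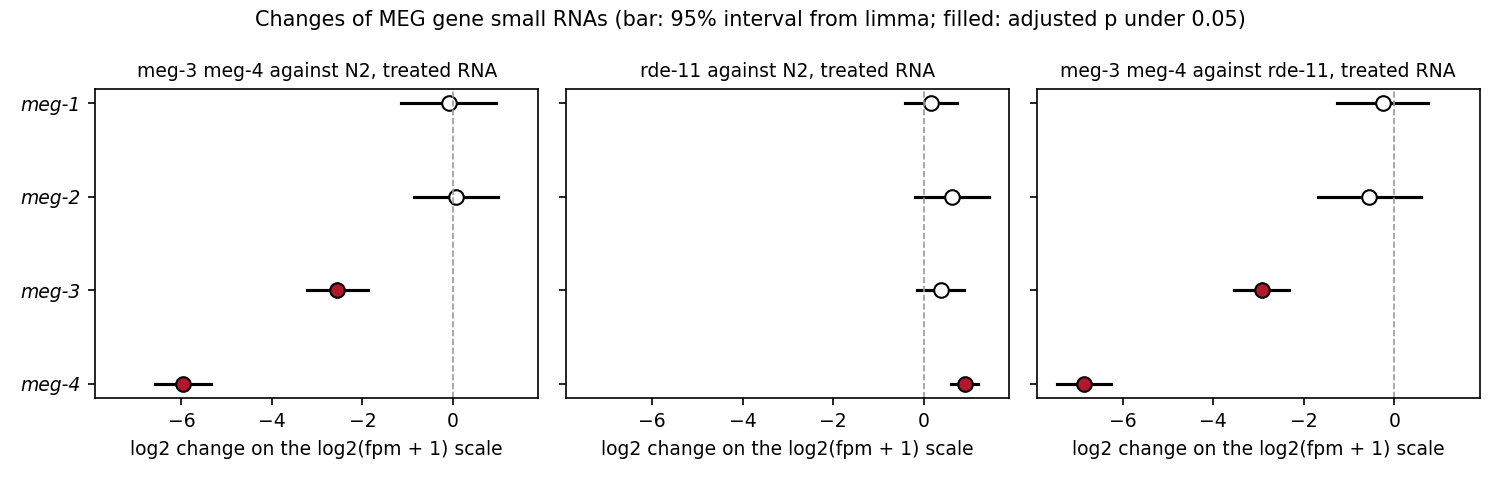
Log2 change of each MEG gene in 3 comparisons of treated RNA, with bars for the limma 95% interval and filled circles for an adjusted p under 0.05. meg-4 is filled in all 3 panels (-5.96, 0.90 and -6.86), meg-3 in the panels that involve the double mutant (-2.55 and -2.93), and meg-1 and meg-2 in none.

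In untreated RNA the MEG genes were close to the limit of detection. The 4 genes together held 7 and 2 reads in the double mutant, 9 and 9 in rde-11, and 6 and 10 in N2. meg-3 had the most over all strains together, with 6 and 1 reads in the double mutant, 3 and 2 in rde-11 and 1 and 8 in N2, so that replicates of the double mutant and of N2 lay on both sides of the rde-11 libraries. meg-4 had 0 reads in both double mutant libraries, 1 and 2 in rde-11, and 1 and 0 in N2. A count of 0 allows up to 3 reads, or 0.597 to 0.621 fpm in the double mutant libraries, while the wider exact 95% interval of a single library reaches 0.735 and 0.764 fpm. No member reached a mean of 1 fpm in any strain comparison of untreated RNA, so no difference was detectable at this depth. The genes called there were 0.238% of 10902 for the double mutant against N2, 0.593% of 11629 for rde-11 against N2 and 10.5% of 11391 for the mutants against each other.

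On the fpm scale, treated RNA held more small RNAs of each MEG gene than untreated RNA in every strain in which a test could be made, a direction that turned for meg-1, meg-2 and meg-3 in some strains when the median gene was centred. In N2, meg-4 stood at 72.0 ± 0.831 fpm in treated and 0.110 ± 0.155 fpm in untreated RNA (SD, n = 2 each; log2 change 6.05, limma, adjusted p = 1.1e-05). The changes in N2 were 2.79 for meg-3, 1.83 for meg-1 and 1.63 for meg-2, with a highest limma adjusted p of 0.00166. In rde-11 they were 6.65 for meg-4, 3.40 for meg-3, 1.85 for meg-1 and 1.84 for meg-2, with a highest limma adjusted p of 0.00689. In the double mutant, meg-1 changed by 2.20 and meg-2 by 1.71 (limma, adjusted p = 0.00777 and 0.00847), and neither meg-3 nor meg-4 reached the level needed for a test. These calls stand beside a background in which 57.0% of 16869 genes were called higher in treated RNA of N2, 57.1% of 15905 in the double mutant and 55.3% of 16901 in rde-11. The fpm values of these libraries are shares of different totals. With the median gene of 50 fpm or more at 0, meg-4 was the one member called in N2 (3.23) and in rde-11 (3.49), and the changes of meg-1 and meg-3 in N2 and of meg-1 and meg-2 in rde-11 turned negative. Without N2 replicate 1 or 2 of treated RNA, meg-1 and meg-3 lost their calls (limma, adjusted p = 0.0587 to 0.111), and without rde-11 replicate 2 of treated RNA meg-2 did (0.0968). Without replicate 2 of the treated double mutant, no member could be tested there.

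The remaining reads of meg-3 in the double mutant were spread over both kinds of RNA. Treated RNA held 12 and untreated RNA 7 of them, a ratio of 1.69 after scaling, with an exact 95% counting interval of 0.613 to 5.06. In N2 the same ratio was 11.8, with an interval of 5.99 to 26.5, from 108 reads in treated and 9 in untreated RNA, and in rde-11 it was 27.0 (11.3 to 84.3), from 159 and 5 reads. These ratios rest on single untreated libraries and their intervals cover counting error only. In the double mutant the ratio was 5.79 (0.857 to 248) without untreated replicate 1 and 1.00 (0.349 to 3.26) without untreated replicate 2. In N2 it was 6.499 (3.18 to 15.4) without untreated replicate 1 and 54.2 (9.52 to 2159) without untreated replicate 2, so that the intervals of the strains overlap in some of these settings.

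The genes that flank the MEG loci were followed as well. The rule for named genes asked for the nearest annotated gene on each side, and the nearest listed gene was taken. Beside meg-4 this is C36C9.10, a noncoding RNA gene on the same strand, whose small RNAs rose in treated RNA of the double mutant. They stood at 15.9 and 11.4 fpm in the double mutant, 2.56 and 3.22 fpm in rde-11, and 4.48 and 4.77 fpm in N2 (log2 change against N2 1.36 ± 0.26 SE, limma, adjusted p = 0.0198). The call ended without N2 replicate 1 or 2 (adjusted p = 0.0982 and 0.0846). C36C9.6, the nearest listed gene on the other side of meg-4, with 2 unlisted annotated genes between them, had 0.211 and 0 fpm in the double mutant and 0 fpm in all other treated libraries.

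Beside meg-3, the pseudogene fbxa-46 stood at 5.28 and 7.20 fpm in the double mutant, 3.34 and 4.03 fpm in rde-11, and 7.74 and 5.01 fpm in N2, and it did not pass the test (-0.01, limma, adjusted p = 0.991). On the other side, Y40A1A.2 had 0 fpm in all treated libraries of the mutants and 0.204 and 0 fpm in N2. meg-1 and meg-2 are each other's neighbours. On its other side meg-1 has the pseudogene K02B9.3, which was too low to test. It had 0 fpm in the treated libraries of the double mutant, 0.197 and 0 fpm in rde-11, and 0.815 and 0.716 fpm in N2. mir-47, the microRNA gene next to meg-2, stood at 812 and 615 fpm in the double mutant, 495 and 501 fpm in rde-11, and 559 and 502 fpm in N2 (0.41 against N2, limma, adjusted p = 0.208).

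After these values were seen, the view was widened to 10 listed genes on each side. Around meg-3, 1 of 11 genes tested rose and 2 fell in the double mutant against N2, and around meg-4 the counts were the same, 1 and 2 of 11. Around meg-1 and meg-2, none of 4 passed the limma test, and the smallest adjusted p was the 0.208 of mir-47 (0.0989 with edgeR). The share called was 8.27% (1.54% higher) among all 16253 genes tested and 20.6% among the 1318 tested genes of chromosome X, of which 19.7% were called lower. Around meg-3 and meg-4, 6 of 22 were called.

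The largest rise near a member was that of linc-6, a long intergenic noncoding RNA gene, which lies on the strand opposite to fbxa-46 and is the listed gene after it from meg-3. Its small RNAs stood at 2324 and 2213 fpm in the double mutant, 631 and 678 fpm in rde-11, and 759 and 757 fpm in N2. They rose in the double mutant by 1.58 log2 units (SE 0.09, limma, adjusted p = 1.1e-04). Small RNAs of fbxa-170, an F-box gene and the next but one from meg-4, went the other way. They stood at 4.23 and 3.98 fpm in the double mutant, 64.7 and 49.1 fpm in rde-11, and 36.9 and 36.3 fpm in N2, a change of -2.88 in the double mutant (SE 0.23, limma, adjusted p = 3.9e-04). Both calls held in all 12 alternatives run.

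The other neighbours that fell in the double mutant were F52D2.12 and Y102A11A.6 near meg-3 and R09H3.3 near meg-4, with changes of -1.44, -1.52 and -0.49 (limma, adjusted p = 0.0140, 0.00502 and 0.0441). R09H3.3 was called in 5 of 12 alternatives and lost its call, among others, with edgeR (adjusted p = 0.139), with DESeq2 (0.824), with the median gene centred (0.543) and without N2 replicate 1 or 2 (0.337 and 0.539). F52D2.12 lost its call without N2 replicate 2 (adjusted p = 0.0962) and with DESeq2 (0.0523), and Y102A11A.6 lost it without N2 replicate 1 or 2 (0.0552 and 0.0623). In rde-11, genes near meg-3 and meg-4 passed the test as well. Y102A11A.3 fell to 65.9 and 73.9 fpm in rde-11, against 246 and 240 fpm in N2 (-1.79, limma, adjusted p = 3e-06), and fbxa-53 to 2.16 and 1.01 fpm, against 22.0 and 19.8 fpm in N2 (-3.12, limma, adjusted p = 1e-05). Y102A11A.6 fell in rde-11 too (-0.61, limma, adjusted p = 0.0229), whereas fbxa-170 rose there (0.61, limma, adjusted p = 0.0446, edgeR 0.0971). In all, 3 of 10 tested genes around meg-3 and 4 of 11 around meg-4 were called in rde-11, where 10.8% of all genes were. These genes lie on chromosome X, and for rde-11 the share called among genes of that chromosome was not taken. The labels do not say whether the strains differ from N2 at these loci beyond the named alleles.

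**Figure D4:**
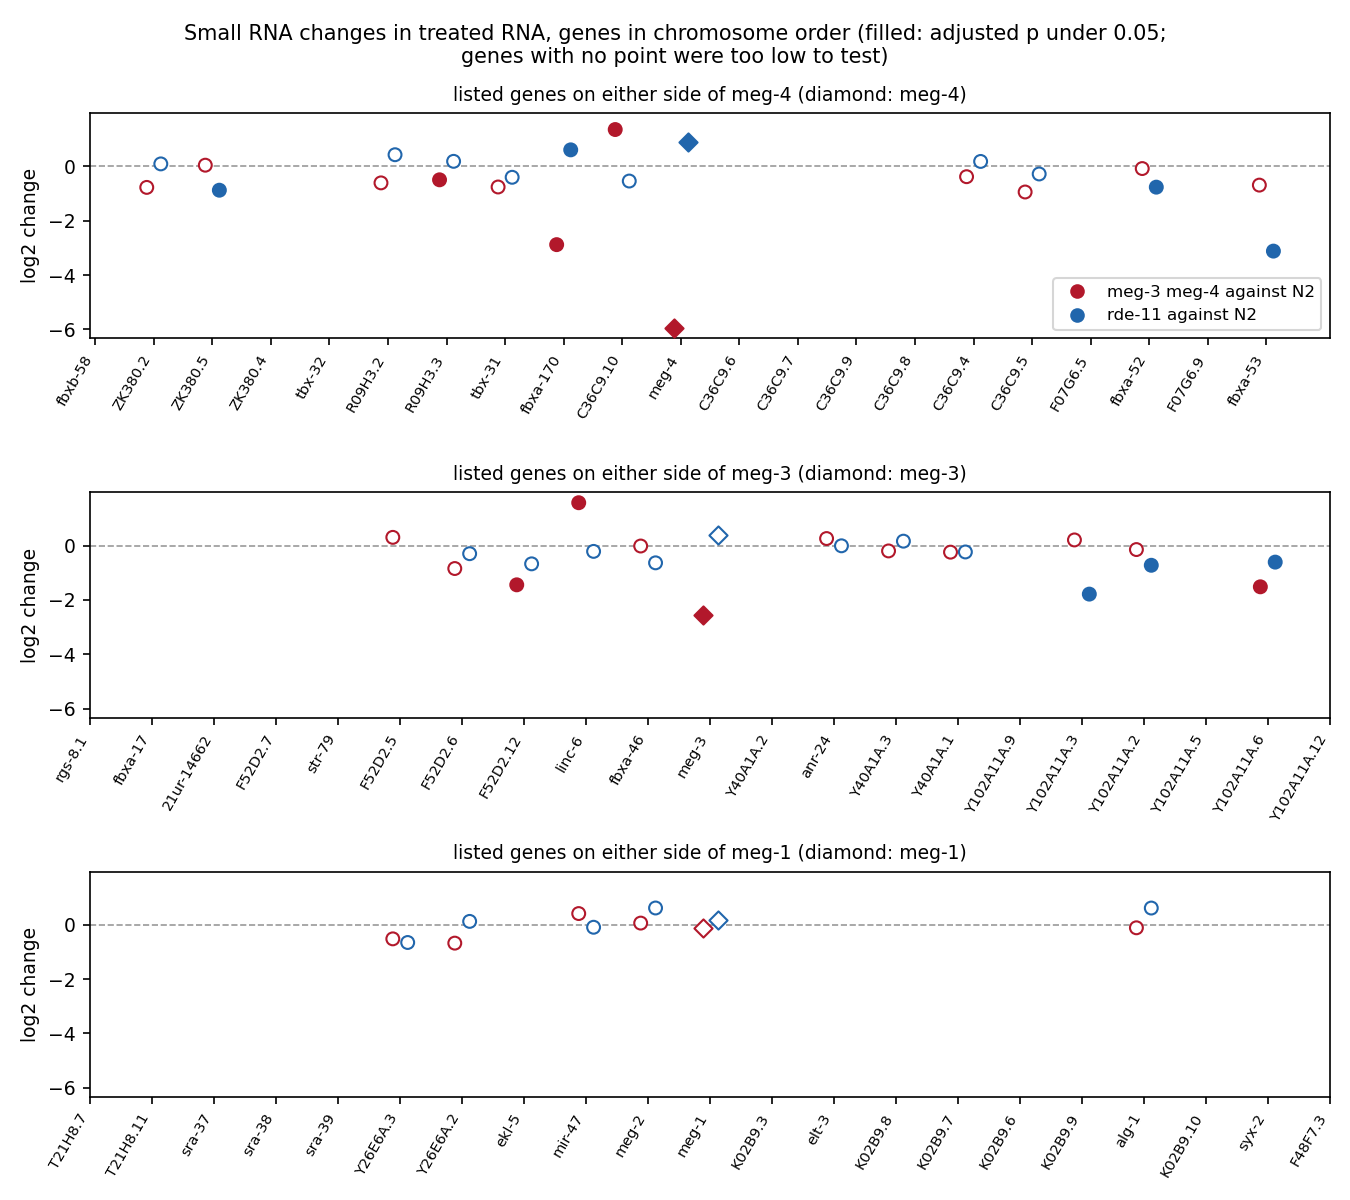
Log2 change in treated RNA of the 10 listed genes on each side of meg-4, meg-3 and meg-1, in chromosome order and not to distance, for the double mutant and for rde-11, each against N2, with filled symbols for an adjusted p under 0.05 and diamonds for the MEG gene. In the double mutant, linc-6 (1.58) and C36C9.10 (1.36) lie above 0 beside the falls of meg-3 and meg-4, and fbxa-170 (-2.88) lies below.

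Small RNAs of other germ granule genes were followed from a list of 20, among them the scaffold genes pgl-1 and pgl-3, the helicase genes glh-1 to glh-4, deps-1 and the Argonaute genes csr-1, prg-1 and wago-4. In treated RNA of the double mutant none of the 20 passed the limma test, 0 had an unadjusted p under 0.05, and 0 were called by edgeR. Their median log2 change was 0.10, with a range of -0.18 to 0.43, beside a median of -0.13 over all genes tested. The largest changes that did not pass the test were those of cgh-1, a helicase gene of germ granules and P-bodies (0.43, limma, adjusted p = 0.644), and car-1 (0.42, limma, adjusted p = 0.606). The list's median turned with single libraries and the scaling: it was -0.31 without double mutant replicate 2, 0.55 without double mutant replicate 1, -0.11 without N2 replicate 1 and -0.15 with microRNAs centred.

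The spread between replicates was large for these genes. Replicate 2 exceeded replicate 1 in 20 of 20 germ granule genes in the double mutant, with a median difference of 0.90 log2 units, in 19 of 20 in rde-11 (0.30) and in 19 of 20 in N2 (0.42). Over all genes at a mean of at least 10 fpm, 59.8% were higher in replicate 2 of the double mutant, 54.8% in rde-11 and 64.1% in N2. pgl-1, for example, stood at 222 and 411 fpm in the double mutant, 354 and 422 fpm in rde-11, and 249 and 310 fpm in N2. meg-1 and meg-2 had the same direction in all 3 strains. The median change of the germ granule list against N2 moved with the library left out. It was 0.55 without double mutant replicate 1 and -0.31 without double mutant replicate 2, and the calls moved as well.

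Of the 20 germ granule genes, 5 rose in treated RNA of rde-11 and none fell, where 6.34% of all genes tested rose and 4.48% fell. They were csr-1, which encodes an Argonaute that protects germline transcripts (563 ± 111 fpm in rde-11, against 315 ± 102 fpm in N2, log2 change 0.86, limma, adjusted p = 0.0123), lotr-1 (0.65), the helicase gene glh-2 (0.90), pgl-1 (0.47) and mip-1 (0.51), with a highest limma adjusted p of 0.0485. The median change of the list was 0.45, beside 0.11 over all genes tested. edgeR called 2 of the 20, glh-2 and csr-1, where it called 12.4% of all genes. Limma with the median gene centred also called 2, where 11.5% of all genes were, and the list's median was then 0.24. That median was 0.65 without N2 replicate 2 and 0.62 without rde-11 replicate 1. It was 0.25 without N2 replicate 1 and 0.34 without rde-11 replicate 2, and the calls moved with these libraries. With all 3 strains in 1 fit none of the 20 was called, where 3.23% of all genes were.

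A second list held 11 genes that act on the MEG proteins or on the partition of the granules, or whose RNA the granules gather. In treated RNA of the double mutant none of the 11 passed the limma test, 0 had an unadjusted p under 0.05, and 0 were called by edgeR. The list's median was -0.25, beside -0.13 over all genes tested. It was 0.06 without double mutant replicate 1 and -0.46 without double mutant replicate 2, where mex-6 was called lower. nos-2, a Nanos gene whose maternal RNA gathers in the granules of the embryo, stood at 12.1 and 12.3 fpm in the double mutant, 21.8 and 22.4 fpm in rde-11, and 18.3 and 15.8 fpm in N2 (-0.45 against N2, limma, adjusted p = 0.376). mbk-2, which encodes the kinase that phosphorylates MEG proteins, stood at 31.9 and 35.8 fpm in the double mutant, 30.3 and 36.04 fpm in rde-11, and 28.5 and 32.9 fpm in N2 (0.14, limma, adjusted p = 0.841).

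In treated RNA of rde-11, 2 of the 11 rose and none fell, where 6.34% of all genes tested rose and 4.48% fell. pptr-1, which encodes the phosphatase subunit that acts against MBK-2, stood at 34.3 ± 2.41 fpm in rde-11, against 21.8 ± 3.98 fpm in N2 (SD, n = 2 each; 0.64, limma, adjusted p = 0.0498). mex-5, which encodes a CCCH protein that disperses the granules at the anterior of the zygote, stood at 43.9 ± 11.4 fpm in rde-11, against 24.1 ± 4.09 fpm in N2 (0.82, limma, adjusted p = 0.0262). edgeR called mex-5 (adjusted p = 0.0348) and not pptr-1 (0.0934), and with all 3 strains in 1 fit limma called neither. Neither was called without N2 replicate 1 or without rde-11 replicate 2 (adjusted p of mex-5 0.0652 and 0.264, of pptr-1 0.280 and 0.263), and pptr-1 not without rde-11 replicate 1 (0.0810). Between the double mutant and rde-11 no gene of either list was called in treated RNA by limma, with 2 of 20 and 5 of 11 at an unadjusted p under 0.05 and 0 called by edgeR. The median changes of the lists there were -0.33 and -0.61, beside -0.28 over all genes tested. They were -0.71 and -0.95 without double mutant replicate 2, and 0.09 and -0.23 without double mutant replicate 1. The calls moved with the library left out.

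**Figure D5:**
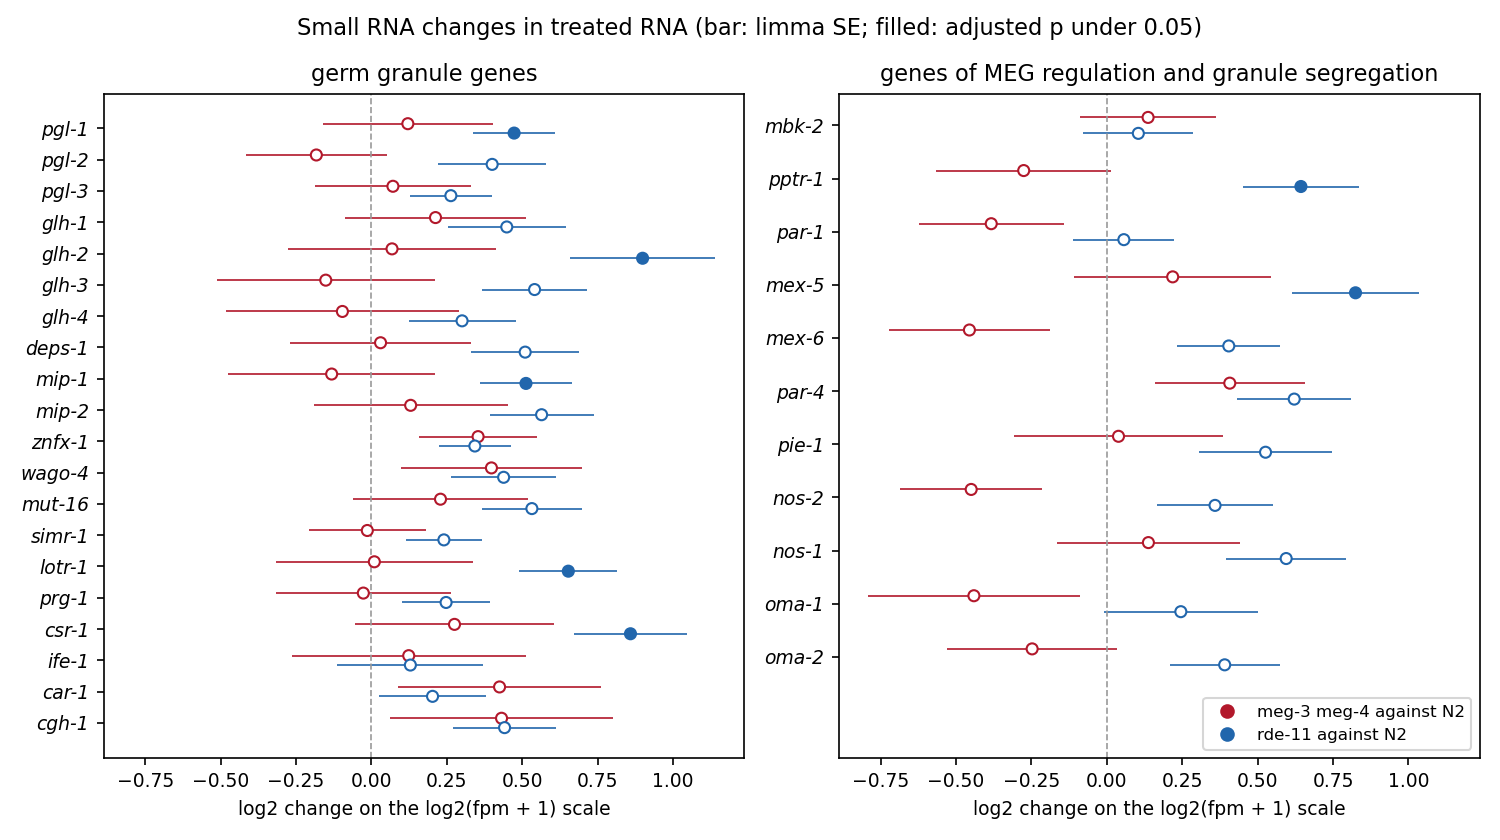
Log2 change in treated RNA of the 20 germ granule genes and the 11 genes of MEG regulation and granule segregation, for the double mutant and for rde-11, each against N2, with bars for the limma standard error and filled points for an adjusted p under 0.05. No gene is filled in the double mutant, and 5 and 2 genes are filled in rde-11.

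In untreated RNA, the germ granule gene pgl-3 was the one list member called against N2. It stood at 0.730 ± 0.424 fpm in rde-11, against 7.75 ± 2.60 fpm in N2 (log2 change -2.33, limma, adjusted p = 5.9e-07, edgeR 9.05e-04), and in the double mutant it stood at 7.35 ± 3.07 fpm. The rde-11 libraries, at 0.43 and 1.03 fpm, were near the floor of 3 reads, which is 0.645 and 0.772 fpm there. The difference between the mutants was 2.24 (limma, adjusted p = 6.7e-04). The call against N2 ended without N2 replicate 1 or 2 (adjusted p = 0.422 and 0.255), and that between the mutants without double mutant replicate 1 or 2 (0.0724 and 0.0888). csr-1 was lower in the double mutant than in rde-11 there (-0.71, limma, adjusted p = 0.0299), which edgeR did not call (0.675).

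As a description, the genes whose pattern over the 6 treated libraries was most like that of meg-3 or meg-4 were sought among 7643 genes at a mean of at least 10 fpm. For meg-4 they were flwr-1, the mechanosensory channel gene trp-4 and the pseudogene F59H6.2, with Pearson's r of log2(fpm + 1) of 0.999 or above. trp-4 stood at 11.4 and 16.1 fpm in the double mutant, 776 and 710 fpm in rde-11, and 477 and 499 fpm in N2, and flwr-1 at 1.48 and 1.89, 22.8 and 22.95, and 17.7 and 18.4 fpm in the same order. Both were low in the double mutant and higher in rde-11 than in N2, as meg-4 was. F59H6.2 had the same order with a smaller fall, with means of 188.9 fpm in the double mutant, 804.9 in rde-11 and 662.5 in N2. For meg-3 they were Y59C2A.3, the talin gene tln-1 and the noncoding RNA gene Y77E11A.3, with r of 0.998 or above. tln-1 stood at 28.8 and 33.2 fpm in the double mutant, 172 and 205 fpm in rde-11, and 131 and 166 fpm in N2. The falls of the others were smaller. Y59C2A.3 averaged 33.1 fpm in the double mutant, 58.9 in rde-11 and 53.6 in N2, and Y77E11A.3 averaged 1691, 2368 and 2241 fpm in the same order. The value of r does not depend on the size of a change. The points are 6 libraries of 3 strains, which the genes share with their depth. Between the members themselves, r over these libraries was 0.99 for meg-3 and meg-4, 0.763 for meg-1 and meg-2, and 0.253 to 0.351 for the other pairs. meg-3 and meg-4 are both named in the genotype of the double mutant and both were low in its 2 libraries. Their r therefore restates that fall and is no separate result.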

How the data were processed

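The authors deposited 4 tables, each with the fpm of 2 mutant and 2 N2 libraries, a CPM unit per the file headers. The same deposited tables hold the authors' log2 change and adjusted p-value, used only to compare. Tools named in the submitters' processing notes are cutadapt, Bowtie2, HTSeq and DESeq2, on build ce10. Whether counting used strand, how reads with several placements were counted and which lengths were kept are points not stated in the labels. Per the values, 100% of the deposited values above 0 were whole multiples of 1 read at a tolerance of 0.01 reads, so reads were recovered. Names, neighbours and exon lengths came from the WBcel235 annotation, which matched 41759 identifiers (99.3%). It is another build than that of the tables, so no coordinates are given.

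The files held a normalized unit, for which limma 3.58.1 with an intensity trend was planned as the main test (R 4.3.3), on log2(fpm + 1), leaving out genes that averaged under 1 fpm in the 4 libraries compared, with Benjamini-Hochberg adjustment over all genes tested. Alternatives were edgeR 4.0.16 with TMM scaling and DESeq2 1.42.0 on recovered reads, another pseudocount, no filter, other centring, other sets of libraries and a replicate block. The code was tested on simulated data. Named genes were the members, their nearest listed neighbours, 2 gene lists and the 3 genes most like each member with a mean of at least 5 fpm in treated RNA. The members and lists were chosen with earlier results of these data known. The authors' averages, 8 columns, were left out. Intervals and the floor of 3 reads cover counting error only, as the labels name no molecular identifiers.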

Additional observations from a re-analysis of the deposited data

Results flagged for a closer look

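The 2 mutants differed in small RNAs of meg-3 and meg-4 in treated RNA, by the same fit of the mutants against each other as given above. The change against N2 in the double mutant was more negative than that in rde-11 by a log2 difference of -2.93 for meg-3 (limma, adjusted p = 3.3e-04) and -6.86 for meg-4 (limma, adjusted p = 8.1e-06). Both double mutant libraries lay below both rde-11 libraries for each gene. These are the genes named in the genotype of the double mutant. The labels do not name the lesions, and whether this strain still holds the full sequence of both genes was not tested.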

How the results depend on the processing

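The calls of meg-3 and meg-4 in the double mutant, against N2 and against rde-11 in treated RNA, held under all 12 alternatives. For rde-11 against N2, meg-4 was the member called, but with all 3 strains in 1 fit 0 members were, and leaving out a library gave 1 to 2. For the double mutant against rde-11, leaving out a library gave 2 to 4 called members. For treated against untreated RNA it gave 1 to 4 in N2 and 0 to 2 in the double mutant, the median gene centred gave 1 in each strain, and edgeR gave 1 in the double mutant. With the median gene centred that 1 was meg-4 in N2 and rde-11, and in the double mutant it was meg-3, lower in treated RNA (-1.67, limma, adjusted p = 0.0421). With microRNAs centred meg-3 was called higher there (1.15, limma, adjusted p = 0.0217), and in the other 4 settings that tested meg-3 it was not called (changes up to 1.03, adjusted p = 0.296 to 0.992). The cause was not tested, except that members fell under the filter in some of these fits. Directions turned for values that were not called: meg-1 in the double mutant against N2 was 0.24 with edgeR, 0.28 with DESeq2 and -0.80 to 0.60 without a library, and meg-2 was -0.10 with microRNAs centred and -0.47 to 0.59 without a library. In rde-11, meg-1 was -0.01 with the median gene centred and meg-2 -0.03 to 1.27 without a library. Between the mutants, meg-1 was 0.15 with edgeR, 0.16 with DESeq2 and -0.96 to 0.44 without a library, and meg-2 -1.20 to 0.09. With the median gene centred, treated against untreated RNA gave -0.99 for meg-1 and -0.55 for meg-3 in N2, and -1.04 and -0.66 for meg-1 and meg-2 in rde-11. In the strain comparisons of untreated RNA no alternative called a member, but few could test one. DESeq2 and edgeR gave the 4 members no adjusted p there. The fit with no filter tested all 4, and fits without a library tested only meg-3, in the double mutant against N2.

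The replicate numbers could not be shown to pair libraries with only 2 per group, although same-numbered libraries deviated together (correlations of 0.200 to 0.595 over genes, all pairs of groups). With the replicate block, 2 members were called in the double mutant against N2, 1 in rde-11 against N2 and 2 between the mutants, the same counts as without it. Germ granule genes called in treated RNA numbered 3 in the double mutant and 18 in rde-11 with the block, against 0 and 5 without it, and genes of the second list 0 and 7, against 0 and 2. Between the mutants the block called 6 of 20 and 6 of 11 lower, against 0 and 0. The block also raised the calls over all genes tested, in either direction. They were 15.9% in the double mutant against N2, 25.5% in rde-11 against N2 and 29.8% between the mutants. Without the block these shares were 8.27%, 10.8% and 12%.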
